A study of Xenopus laevis with 8 samples.

Results

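The genes described here are the suppressors of cytokine signalling socs1, socs2 and socs3, the interferon regulatory factors irf1 and irf2, and the transcription factor gene stat3, in explants of Xenopus laevis gastrulae. A row of the count table was taken as a member when its name, without a number and the copy letter, was one of these 6 symbols, or when its NCBI gene number carried such a symbol. This gave 11 of 35649 rows. X. laevis is allotetraploid and keeps an L and an S copy of many genes, so the members are socs1.L, socs1.S, socs2.L (found by its gene number), socs2.S, socs3.L, socs3, irf1.L, irf2.L, irf2, stat3.1.L and stat3.2.L. The rows socs3 and irf2 carry no copy letter, and which copy they count is not known here, so they are called rows and not S copies. The gene irf1.S is not analysed here. The family was selected on the strong fall of socs3 and irf1 in PhSpMo marginal zone explants, so the members' values in that comparison are given as a description with no test.

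JAK-STAT signalling begins when a cytokine binds receptors such as gp130, and the Janus kinases attached to them phosphorylate STAT proteins, which then enter the nucleus and switch on genes. SOCS proteins are among the products of those genes and close a negative feedback loop: SOCS1 and SOCS3 bind Janus kinases or their receptors, and SOCS2 acts mainly on the growth hormone receptor. IRF1 is a transcriptional activator of interferon-responsive genes and IRF2 competes for the same sites, largely as a repressor, as worked out in mammals. In Xenopus embryos, Stat3 activated through gp130 was found to ventralize the body plan.

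The series measured how gene expression differs when Pinhead, a secreted factor encoded by pnhd, is added or depleted, with 2 samples in each of 4 groups. Flag-Pinhead ectoderm explants came from embryos given 1.5 ng of RNA for the tagged protein. PhSpMo marginal zone explants came from embryos given 40 ng of the PhSpMo oligonucleotide in each blastomere at the 4-cell stage. Control marginal zone explants (the equatorial region that forms mesoderm) and control ectoderm explants (the animal cap) are both labelled untreated, so no group controls for injection itself. The ectoderm samples are labelled stage 11 and the marginal zone samples stage 10.5, although the series text gives stage 11 for both. No strain or genotype is given.

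Total counts per sample ran from 12551618 to 19719311. The targeted gene followed the labels: pnhd.L had 31777 and 59876 CPM (its counts scaled to a common library total) in Flag-Pinhead ectoderm, against 16.1 and 18.3 in control ectoderm, and these counts include the injected RNA. The copy pnhd.L had 56.9 CPM in PhSpMo marginal zone, against 93.7 and 89.2 in control marginal zone. The copy pnhd.S had 14.3 and 10.6 CPM in Flag-Pinhead ectoderm, against 1.06 and 1.43 in control ectoderm. In PhSpMo marginal zone pnhd.S had 36.3 CPM, against 79.8 and 83.6 in control marginal zone. Whether these PhSpMo differences come from the oligonucleotide acting on pnhd RNA was not tested. The PhSpMo samples differed from each other by no more than columns of other single samples do (mean chi-square per gene 1.43, against 1.29 to 1.46), while the columns named for each of them differed more (2.38 and 2.44). PhSpMo columns with the same last digit differed by 1.30 and 1.36, and the sums by last digit differed by 3.41. The column names may thus be crossed between 2 distinct samples, which is not known here. All PhSpMo columns were therefore summed and counted as 1 sample, which has no SD. Its spread in the fit is borrowed from the other groups. The Flag-Pinhead samples, whose counts hold the injected RNA, stood further apart (11.9) than the control marginal zone (2.05) and control ectoderm samples (2.27). That mean includes pnhd.L, whose amount differed between the 2 Flag-Pinhead samples, so these values are not a like measure of spread. No source gives the clutches behind the samples, so a p-value here covers sample-to-sample spread, part of which may be technical.

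All 11 members passed the filter on low counts, and their normalized CPM (scaled by TMM, a correction for library composition) are shown by sample. With Flag-Pinhead RNA, socs2.L and irf1.L rose, socs3.L, irf2 and stat3.2.L fell, and 6 members did not pass the test (edgeR's quasi-likelihood test, adjusted p under 0.05 over 22241 genes). Of all genes 15.5% rose and 11.9% fell in that comparison, so 2 and 3 of 11 are close to the background. In control marginal zone against control ectoderm, 7 of 11 members were lower and 1, stat3.1.L, was higher, where 26.3% of all genes were lower and 26.5% higher. That comparison shares its control marginal zone samples with the one that chose the members, and its control ectoderm samples with the Flag-Pinhead comparison. In PhSpMo marginal zone, 4 of 11 members were at least 4-fold under the control marginal zone (log2 fold change of -2 or less), as were 1.43% of all genes; since the family was chosen for this, nothing is read from that count, which was 3 from the PhSpMo columns ending in 2 alone. The members' median log2 fold changes were 0.08 with Flag-Pinhead RNA, -1.04 between the tissues and -0.23 with PhSpMo, and those of all genes tested were 0.0003, -0.0029 and 0.

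**Figure D1:**
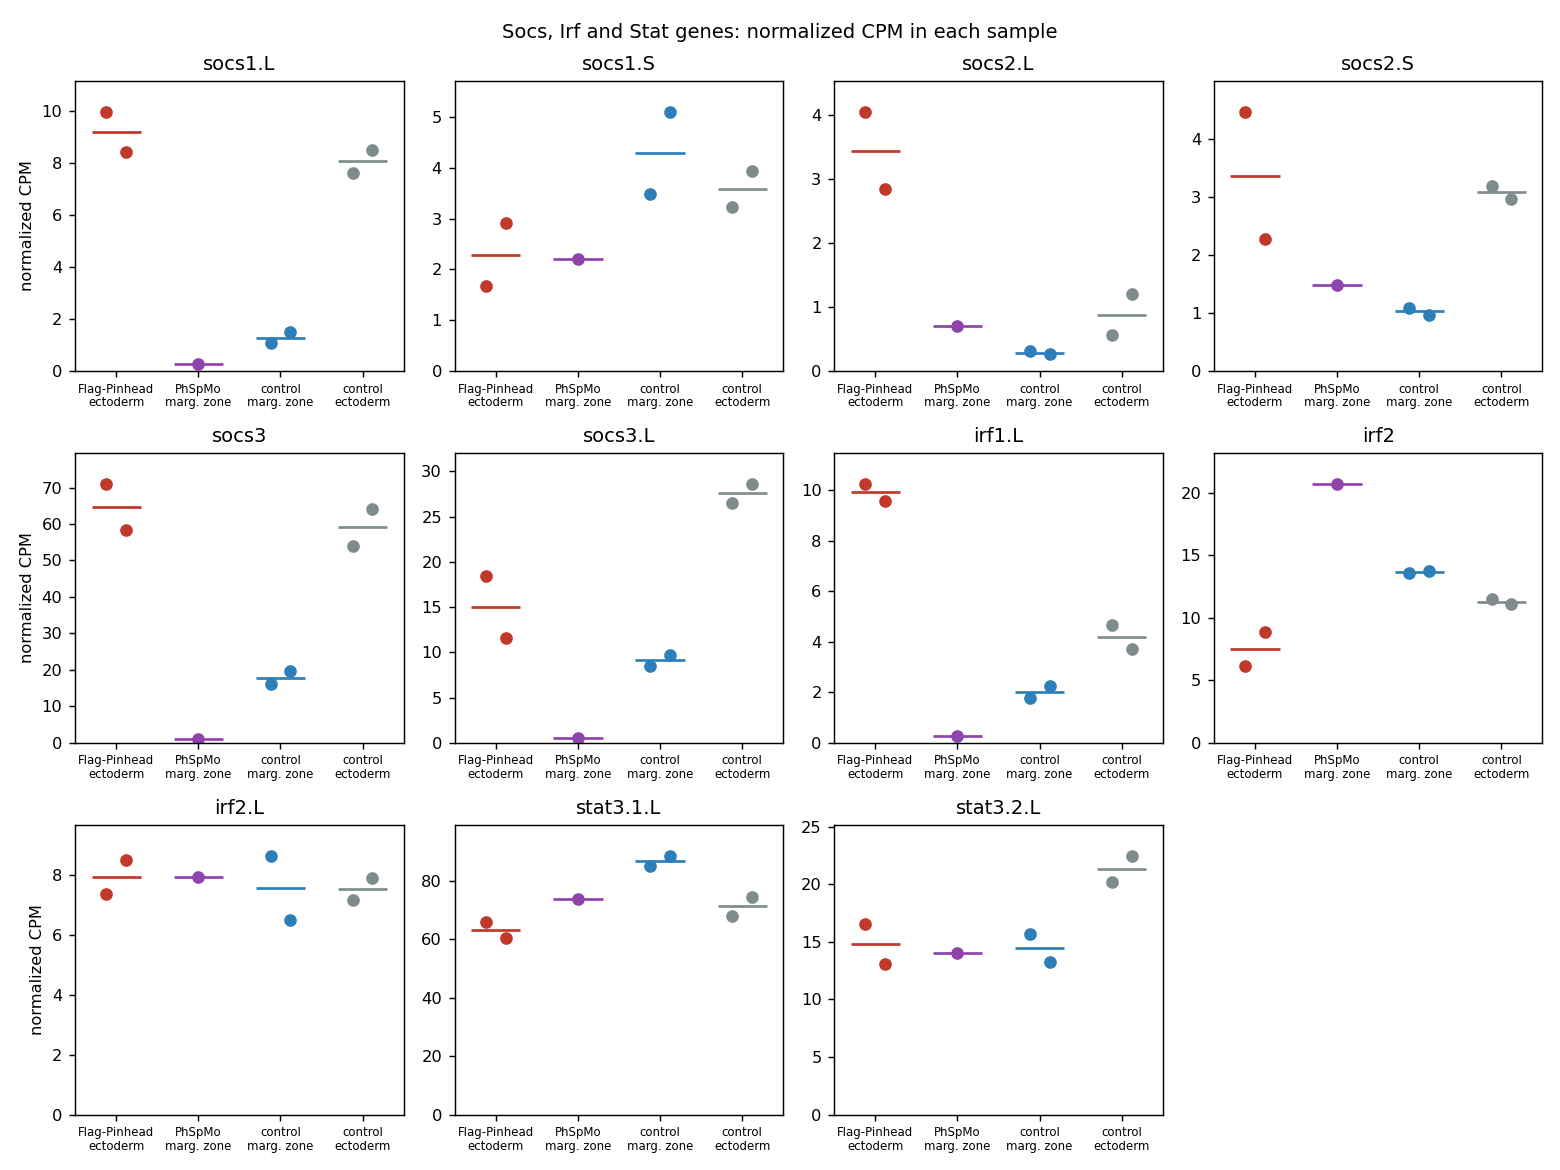
Normalized CPM of each member (vertical axes, linear, from 0) in Flag-Pinhead ectoderm, PhSpMo marginal zone, control marginal zone and control ectoderm; each point is 1 sample, PhSpMo being its summed columns, and bars are group means. The socs3, socs3.L, socs1.L and irf1.L points of PhSpMo lie near 0, while irf2 is highest there at 20.7 CPM.

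The 2 rows for socs3, the feedback inhibitor that binds gp130-type receptors, had the largest differences in the marginal zone. The row socs3 had 1.16 CPM in PhSpMo marginal zone, against 16.2 and 19.6 CPM in control marginal zone, a log2 fold change of -3.95 (SE 0.23). Behind it were 36 counts with PhSpMo (7 and 14 in the columns of the library named 1, 5 and 10 in those of the library named 2) against 512 in the controls, a ratio of 15.6 of control over PhSpMo with an exact 95% counting interval of 11.1 to 22.5. The row socs3.L had 0.481 CPM with PhSpMo, against 8.51 and 9.75 CPM in control marginal zone, a log2 fold change of -4.23 (SE 0.34). For socs3.L 15 counts stood against 261, and the interval of the ratio ran from 11.4 to 34.6. Every PhSpMo column was thus far under both control samples for both rows. Counting intervals cover counting error only.

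Between the untreated tissues both rows of socs3 were lower in the marginal zone. The row socs3 stood at 16.2 and 19.6 CPM in control marginal zone, against 54.0 and 64.2 CPM in control ectoderm, which is -1.72 on the log2 scale (SE 0.11, adjusted p = 1.32e-12). The values of socs3.L were 8.51 and 9.75 CPM in control marginal zone and 26.5 and 28.6 CPM in control ectoderm, which is -1.59 on the log2 scale (SE 0.16, adjusted p = 4.46e-09). Both rows were about 3-fold lower in the marginal zone, with no overlap between the groups.

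With Flag-Pinhead RNA 1 of the rows of socs3 passed the test; the difference between the rows was not tested. The row socs3 had 71.0 and 58.5 CPM in Flag-Pinhead ectoderm, against 54.0 and 64.2 CPM in control ectoderm; the groups overlapped, and the log2 fold change of 0.13 (SE 0.10, adjusted p = 0.341) did not pass. The row socs3.L fell to 18.5 and 11.6 CPM in Flag-Pinhead ectoderm, against 26.5 and 28.6 CPM in control ectoderm, which is -0.87 on the log2 scale (SE 0.15, adjusted p = 4.58e-05). Without Flag-Pinhead replicate 2, socs3 passed as a rise (log2 fold change 0.27, adjusted p = 0.0373). That replicate, with the lower values of both rows, also held the larger amount of pnhd.L RNA; the part of the RNA amount in these differences was not tested.

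The L copy of socs1, whose product inhibits Janus kinases directly, followed the same order as socs3 over the groups. It had 0.257 CPM in PhSpMo marginal zone, against 1.08 and 1.48 CPM in control marginal zone, a log2 fold change of -2.31 (SE 0.50) that rests on 8 counts against 37 (ratio of control over PhSpMo 5.07, counting interval 2.32 to 12.6). The 8 counts were unevenly spread: 1 lay in the PhSpMo columns whose names end in 1 and 7 in those ending in 2, so the log2 fold change was -4.14 from the columns ending in 1 alone and -1.57 from those ending in 2. Between the tissues, 1.08 and 1.48 CPM in control marginal zone stood against 7.63 and 8.50 CPM in control ectoderm, which is -2.63 on the log2 scale (SE 0.25, adjusted p = 1.81e-09) and the largest tissue difference of any member. With Flag-Pinhead RNA it had 9.96 and 8.43 CPM, against 7.63 and 8.50 CPM in control ectoderm, a difference of 0.19 (SE 0.18, adjusted p = 0.487) that did not pass.

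The S copy of socs1 passed neither test. It had 2.21 CPM in PhSpMo marginal zone, against 3.48 and 5.10 CPM in control marginal zone, a log2 fold change of -0.96 (SE 0.32). At 3.48 and 5.10 CPM in control marginal zone, against 3.23 and 3.93 CPM in control ectoderm, it differed by 0.28 on the log2 scale (SE 0.27, adjusted p = 0.401), and the tissues overlapped. It had 1.67 and 2.91 CPM in Flag-Pinhead ectoderm, against 3.23 and 3.93 CPM in control ectoderm, which is -0.64 on the log2 scale (SE 0.30, adjusted p = 0.114). That difference passed without Flag-Pinhead replicate 2 (-1.09, adjusted p = 0.0213).

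Both copies of socs2, the SOCS gene tied to growth hormone signalling, were weakly read. The copy socs2.L rose to 4.04 and 2.83 CPM in Flag-Pinhead ectoderm, against 0.556 and 1.20 CPM in control ectoderm, which is 1.99 on the log2 scale (SE 0.40, adjusted p = 0.000357). It was the largest rise of any member there, and rests on 98 counts against 32 (ratio 4.02, counting interval 2.67 to 6.19). The copy socs2.S had 4.46 and 2.27 CPM in Flag-Pinhead ectoderm, against 3.18 and 2.97 CPM in control ectoderm, with no call (log2 fold change 0.13, SE 0.30, adjusted p = 0.805).

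Both socs2 copies were lower in control marginal zone than in control ectoderm. The copy socs2.S had 1.08 and 0.968 CPM in control marginal zone, against 3.18 and 2.97 CPM in control ectoderm, which is -1.58 on the log2 scale (SE 0.37, adjusted p = 0.000716). For socs2.L the values were 0.309 and 0.258 CPM in control marginal zone (4 counts in each sample), against 0.556 and 1.20 CPM in control ectoderm, which is -1.59 on the log2 scale (SE 0.62, adjusted p = 0.0338). That call was lost with DESeq2 (adjusted p = 0.0867), without control ectoderm replicate 2 (0.319) and without control marginal zone replicate 1 (0.0962) or 2 (0.163). With PhSpMo neither copy was under its controls: socs2.L had 0.706 CPM, against 0.309 and 0.258 CPM in control marginal zone, and socs2.S had 1.48 CPM, against 1.08 and 0.968 CPM.

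The gene irf1.L, for the activator of interferon-responsive genes, passed the test in both comparisons other than the one the members were chosen on. In Flag-Pinhead ectoderm it rose to 10.2 and 9.57 CPM, against 4.65 and 3.71 CPM in control ectoderm, which is 1.24 on the log2 scale (SE 0.20, adjusted p = 2.91e-05). Between the tissues it had 1.78 and 2.26 CPM in control marginal zone, against 4.65 and 3.71 CPM in control ectoderm, which is -1.04 on the log2 scale (SE 0.26, adjusted p = 0.0013). Neither pair of groups overlapped, and both calls held in each of the 16 alternatives run. With PhSpMo it had 0.257 CPM, against 1.78 and 2.26 CPM in control marginal zone, a log2 fold change of -2.95 (SE 0.47). Here 8 counts (2, 2, 1 and 3 in the PhSpMo columns) stood against 58, a ratio of control over PhSpMo of 7.95 with a counting interval of 3.78 to 19.3.

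The row irf2, for the factor that competes with IRF1, had its highest value in PhSpMo marginal zone. It had 20.7 CPM there, against 13.6 and 13.7 CPM in control marginal zone, a log2 fold change of 0.60 (SE 0.15). In Flag-Pinhead ectoderm it fell to 6.13 and 8.86 CPM, against 11.5 and 11.1 CPM in control ectoderm (log2 fold change -0.59, SE 0.16, adjusted p = 0.00546). The call was lost without Flag-Pinhead replicate 1 (-0.35, adjusted p = 0.144) or control ectoderm replicate 1 (adjusted p = 0.055). Between the tissues it did not pass (13.6 and 13.7 CPM in control marginal zone, against 11.5 and 11.1 CPM in control ectoderm, adjusted p = 0.112). The row irf2.L stood between 6.52 and 8.66 CPM in every sample, with adjusted p of 0.807 for Flag-Pinhead RNA and near 1 between the tissues.

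The rows of stat3, the STAT that acts below gp130, had log2 fold changes between -0.56 and 0.29. The row stat3.1.L had 73.8 CPM in PhSpMo marginal zone, against 84.9 and 88.5 CPM in control marginal zone, a log2 fold change of -0.23 (SE 0.08). It was higher in control marginal zone, at 84.9 and 88.5 CPM, than in control ectoderm, at 67.9 and 74.4 CPM (log2 fold change 0.29, SE 0.07, adjusted p = 0.00107), a call that was lost without control ectoderm replicate 1 (adjusted p = 0.0519). With Flag-Pinhead RNA it had 66.0 and 60.5 CPM, against 67.9 and 74.4 CPM in control ectoderm, and did not pass (log2 fold change -0.17, SE 0.07, adjusted p = 0.0795), but passed without Flag-Pinhead replicate 1 (-0.23, adjusted p = 0.0282).

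The other row, stat3.2.L, was lower in both tested comparisons. It had 16.5 and 13.1 CPM in Flag-Pinhead ectoderm, against 20.2 and 22.5 CPM in control ectoderm, which is -0.52 on the log2 scale (SE 0.13, adjusted p = 0.00292). That call was lost without Flag-Pinhead replicate 2 (adjusted p = 0.0527) or control ectoderm replicate 2 (0.0691). Between the tissues it had 15.7 and 13.2 CPM in control marginal zone, against 20.2 and 22.5 CPM in control ectoderm, which is -0.56 on the log2 scale (SE 0.13, adjusted p = 0.000708). With PhSpMo it had 14.0 CPM, inside the range of control marginal zone.

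**Figure D2:**
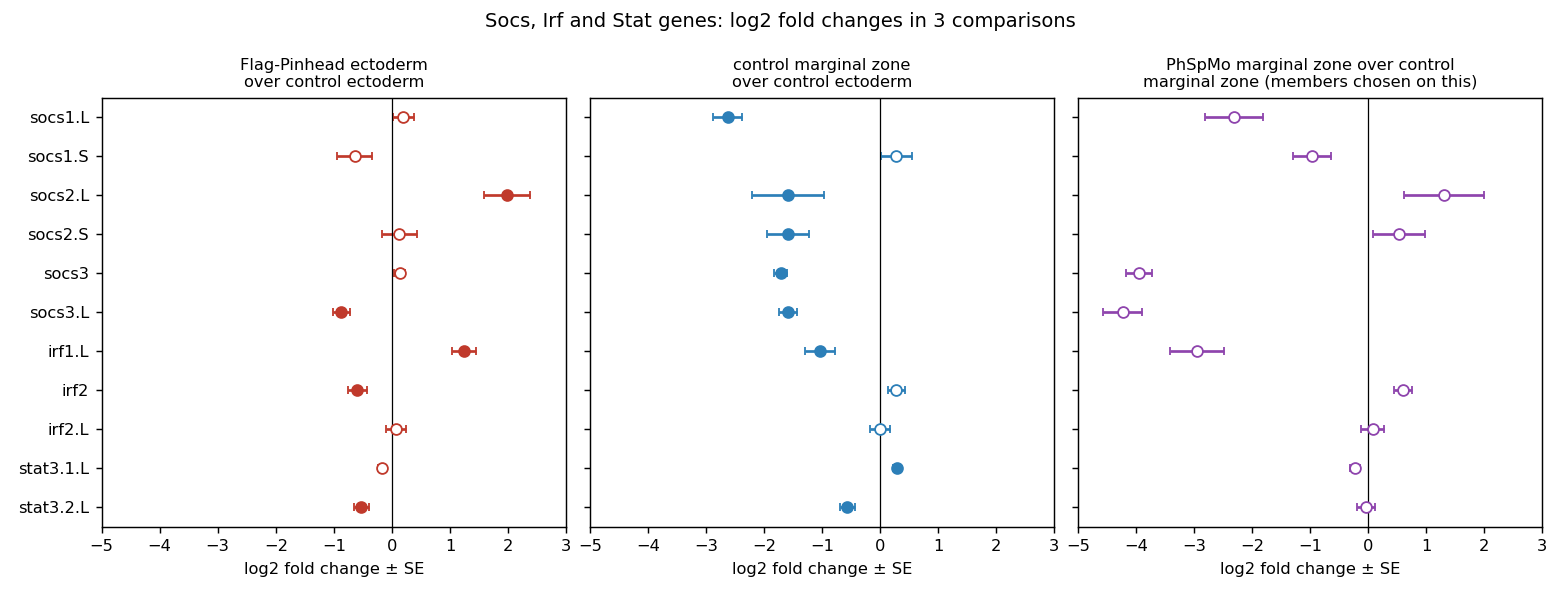
Log2 fold change (horizontal axes) with its SE for the 11 members in Flag-Pinhead ectoderm over control ectoderm, control marginal zone over control ectoderm, and PhSpMo over control marginal zone; filled points passed the test, and the PhSpMo panel is a description whose points were not tested. The Socs rows and irf1.L span -4.23 to 1.99, while the stat3 and irf2 rows stay between -0.59 and 0.60.

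The 11 members had 7 orders of level over the 4 groups. The share of all genes with each order or overlap was not taken, so nothing is read from how many members share an order. The low PhSpMo values of socs3 and irf1 are those the family was chosen on. In socs1.L, socs3 and irf1.L the order from low to high was PhSpMo marginal zone, control marginal zone, control ectoderm and Flag-Pinhead ectoderm. For socs1.L and socs3 the ranges of the ectoderm groups overlapped, and for irf1.L no neighbouring groups did. In socs3.L the order was the same except that Flag-Pinhead ectoderm lay under control ectoderm, with no overlap; stat3.2.L had that order too, with overlaps between PhSpMo and control marginal zone and between control marginal zone and Flag-Pinhead ectoderm. The row irf2 ran the other way, from Flag-Pinhead ectoderm through control ectoderm and control marginal zone up to PhSpMo marginal zone. Both socs2 copies ran from control marginal zone through PhSpMo marginal zone and control ectoderm up to Flag-Pinhead ectoderm. For socs2.L PhSpMo marginal zone and control ectoderm overlapped, and for socs2.S the ectoderm groups did. The PhSpMo range used for overlaps was that of its 2 samples as named. If the column names are crossed, that range may be too narrow. The order of socs1.S was PhSpMo marginal zone, Flag-Pinhead ectoderm, control ectoderm and control marginal zone, with overlap between the lower 2 groups and between the upper 2. That of stat3.1.L was Flag-Pinhead ectoderm, control ectoderm, PhSpMo marginal zone and control marginal zone, the middle 2 overlapping. In irf2.L all neighbouring groups overlapped. Scaling by total counts kept the order in 8 members and changed it in socs1.S, irf2.L and stat3.2.L.

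The share of counts that each row took within a pair of rows of 1 symbol, which needs no scaling between samples but is not corrected for transcript length, was taken in each sample. The L copy took 85.6% and 74.4% of socs1 counts in Flag-Pinhead ectoderm and 70.2% and 68.3% in control ectoderm. In the marginal zone it took 10.4% with PhSpMo (exact 95% counting interval 4.59% to 19.5%) and 23.7% and 22.5% in the controls, so the copy most read in ectoderm was the less read one in the marginal zone. Of the counts of socs3.L and socs3 together, socs3.L took 20.6% and 16.6% in Flag-Pinhead ectoderm, under the 33.0% and 30.8% of control ectoderm. With PhSpMo its share was 29.4% (17.5% to 43.8%), an interval that holds the 34.5% and 33.3% of control marginal zone, so no change in this share was detectable at 51 counts in all. Of the counts of irf2.L and irf2 together, irf2.L took 54.6% and 49.0% in Flag-Pinhead ectoderm and 38.4% and 41.7% in control ectoderm. In the marginal zone it took 27.8% with PhSpMo (24.9% to 30.8%) and 38.9% and 32.2% in the controls. Reads of near-identical copies may be split or shared by the counting, whose options are not known, and these differences in share were not tested.

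**Figure D3:**
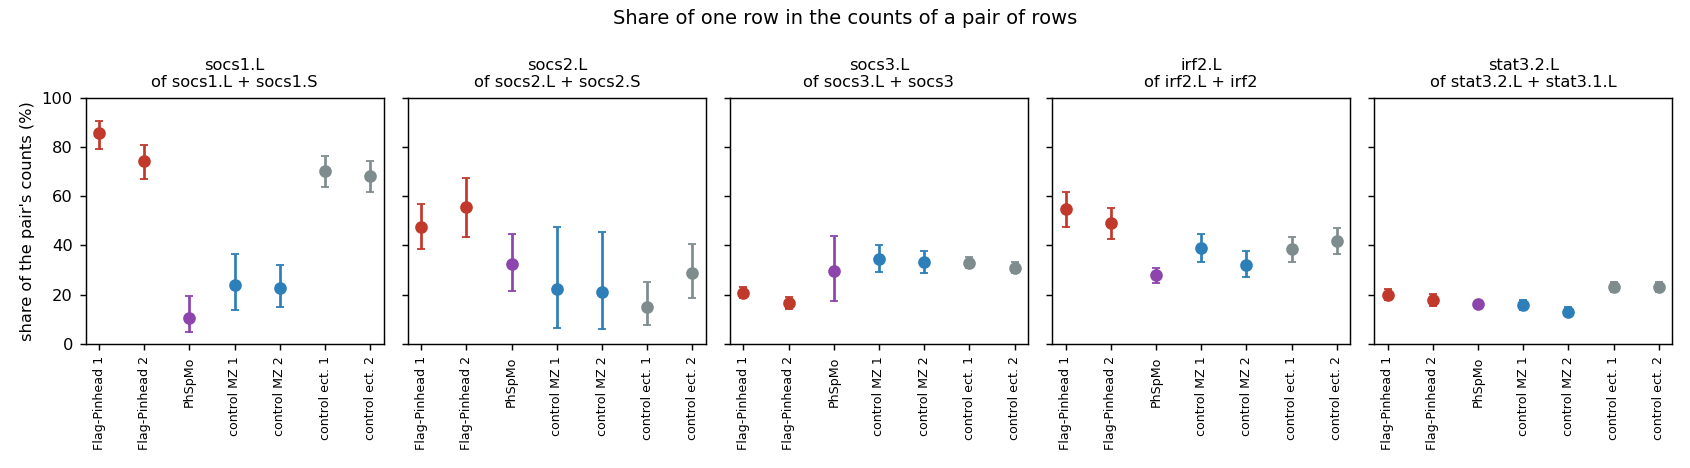
Share of the counts of a pair of rows (percent, vertical axis from 0 to 100) taken by the row named first, in each sample, with exact 95% counting intervals, which cover counting error only. The L copy of socs1 takes 68.3% to 85.6% in the ectoderm samples and 10.4% to 23.7% in the marginal zone samples.

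A related pair lies outside the symbol rule, the socs3-like genes socs3l.S and socs3l.L, and neither passed the test with PhSpMo. With PhSpMo socs3l.S had 15.6 CPM, against 13.8 and 17.5 CPM in control marginal zone (log2 fold change -0.01, SE 0.14, adjusted p = 0.969). The copy socs3l.L had 9.31 CPM with PhSpMo, against 13.7 and 12.7 CPM in control marginal zone (-0.50, SE 0.19, adjusted p = 0.0719). Both were lower in control marginal zone than in control ectoderm, with log2 fold changes of -0.69 and -2.68 (adjusted p = 2.45e-05 and 5.84e-15).

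Among 14476 other genes with a symbol and a mean log2 CPM of at least 1, those nearest to socs3 in their centred log2(CPM + 1) profile over the 7 units were krt7.S, XB5812047.L, dapk2.L, MGC80203 and slc30a8.L. Their distances were 1.20 to 1.36, where a flat profile would lie 4.46 away. The keratin gene krt7.S had 1346 and 1073 CPM in Flag-Pinhead ectoderm and 958 and 1035 CPM in control ectoderm, and 50.1 CPM with PhSpMo against 173 and 190 CPM in control marginal zone. Nearest to irf1.L were shroom3.L, dennd2a.L, lamb1.L, trim29.L and trpv6.L, at distances of 0.318 to 0.586 where a flat profile lies 2.73 away. The apical constriction gene shroom3.L had 16.1 and 14.5 CPM in Flag-Pinhead ectoderm and 7.98 and 7.47 CPM in control ectoderm, and 0.899 CPM with PhSpMo against 3.17 and 3.36 CPM in control marginal zone. The likeness is a description over 7 units in 4 groups.

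**Figure D4:**
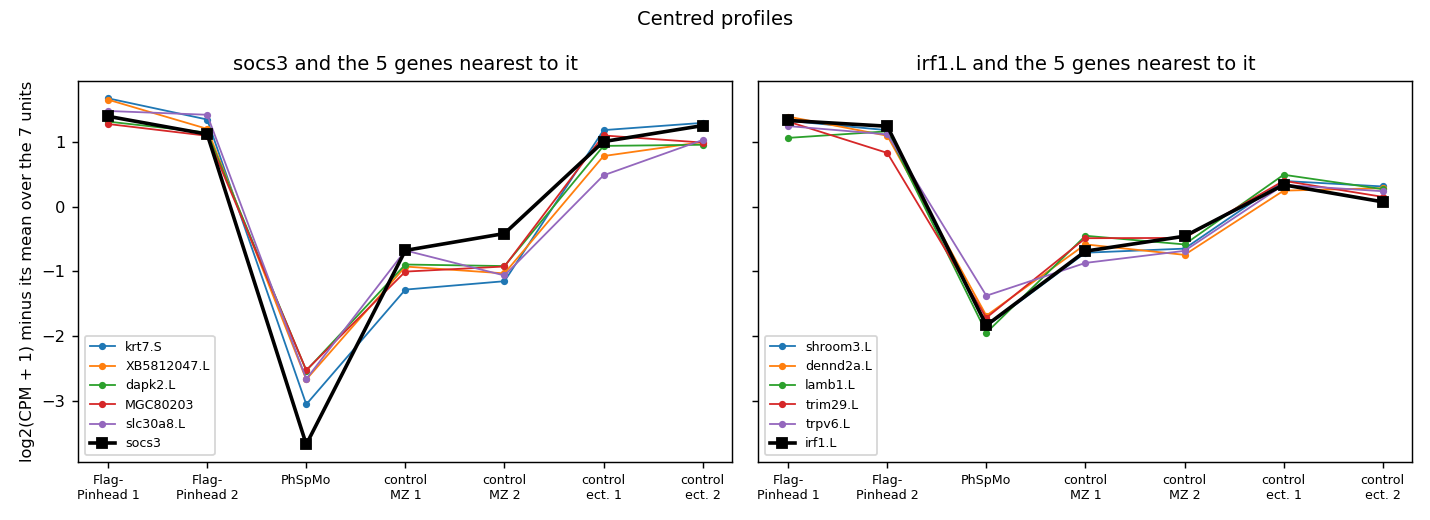
Log2(CPM + 1) minus its mean over the 7 units (vertical axes) for socs3 and irf1.L in black and the 5 genes with the nearest profile in colour, over Flag-Pinhead ectoderm, PhSpMo marginal zone, control marginal zone and control ectoderm. In each profile PhSpMo is the lowest point and the Flag-Pinhead points are at or near the top.

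The other JAK-STAT genes, described from a list, moved in both directions. This list and those below were chosen with earlier results of these data known. Their counts beside the shares of all genes are thus a description. The JAK-STAT list holds kinases, other STATs, other SOCS genes, PIAS proteins, phosphatases and adaptors such as the sh2b2 copies. Of its 46 tested rows 4 rose and 7 fell with Flag-Pinhead RNA (median log2 fold change 0.02). Between the tissues 18 were higher in control marginal zone and 8 lower (median 0.21). Of all genes 15.5% rose and 11.9% fell with Flag-Pinhead RNA, and 26.5% were higher and 26.3% lower in control marginal zone. With PhSpMo 7 rose and 4 fell (median 0.07), where 8.22% of all genes rose and 10.5% fell. Without control marginal zone replicate 2 the PhSpMo counts were 2 and 1, and with DESeq2 they were 2 and 2; without control ectoderm replicate 1 or 2 they were 7 and 2, and in the fit of only the groups compared 12 and 5. DESeq2 called 2 rises and 4 falls with Flag-Pinhead RNA, and without control ectoderm replicate 2 the counts were also 2 and 4; without Flag-Pinhead replicate 1 they were 4 and 4, and with only the groups compared 2 and 6. Without control ectoderm replicate 2 the tissue counts were 12 higher and 5 lower.

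The row of this list with the lowest p in both treatments was socs4.S, another SOCS gene, which rose in each. It had 18.1 and 21.1 CPM in Flag-Pinhead ectoderm, against 1.11 and 2.11 CPM in control ectoderm (log2 fold change 3.62, SE 0.20, adjusted p = 1.47e-13). It had 16.9 CPM in PhSpMo marginal zone, against 1.93 and 1.94 CPM in control marginal zone (log2 fold change 3.13, SE 0.23, adjusted p = 1.08e-10). Its PhSpMo value lay over both controls, where that of socs3 lay under them. Of the other STAT genes, stat6.L fell to 1.57 CPM with PhSpMo, against 6.57 and 4.71 CPM in control marginal zone (log2 fold change -1.83, SE 0.34, adjusted p = 0.000251).

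Of 27 rows for cytokines and their receptors only 12 were read enough to be tested. The ligand gene lif, whose product signals through LIFR and gp130, rose with both treatments in both copies. The copy lif.S had 2.86 and 3.19 CPM in Flag-Pinhead ectoderm, against 0.455 and 0.456 CPM in control ectoderm (log2 fold change 2.71, SE 0.42, adjusted p = 1.27e-05). It had 1.60 CPM with PhSpMo, against 0.155 and 0.129 CPM in control marginal zone (3.45, SE 0.64, adjusted p = 0.000251). For lif.L 35 counts in Flag-Pinhead ectoderm stood against 1 in control ectoderm (ratio 45.9, counting interval 7.72 to 1864, adjusted p = 0.000147). With PhSpMo 38 counts stood against 2 in control marginal zone (ratio 17.3, counting interval 4.48 to 148, adjusted p = 0.00245), a call lost without control marginal zone replicate 2 (adjusted p = 0.0656). DESeq2 gave neither lif copy an adjusted p with PhSpMo, as its own filter on low counts left them out. The receptor gene lifr.L rose to 20.8 and 22.1 CPM in Flag-Pinhead ectoderm, against 14.0 and 12.7 CPM in control ectoderm (0.68, SE 0.12, adjusted p = 0.000111), and was the third of the 3 rows called there, all higher; without Flag-Pinhead replicate 1 the count was 5.

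Of these 12 rows 1 was higher and 4 were lower in control marginal zone than in control ectoderm; the 1 was lost without control ectoderm replicate 1 or control marginal zone replicate 1, and with DESeq2. The growth hormone receptor gene ghr.L had 0.773 and 0.775 CPM in control marginal zone, against 8.39 and 9.69 CPM in control ectoderm (log2 fold change -3.53, SE 0.27, adjusted p = 2.79e-11). Its known feedback inhibitor gene socs2.S was also called lower there, as were 26.3% of all genes. A link between ghr.L and socs2.S was not tested. With PhSpMo 2 rows rose, both of them lif, and none fell, although some alternatives, among them the fit of 8 samples as named, called 1 row lower. Of all genes 8.22% rose and 10.5% fell with PhSpMo, and 15.5% and 11.9% with Flag-Pinhead RNA. Between the tissues 26.5% were higher and 26.3% lower in control marginal zone.

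The other Irf genes gave calls in both directions. Of 10 tested rows 4 rose and 1 fell with Flag-Pinhead RNA, where 15.5% and 11.9% of all genes did. In control marginal zone 5 were higher and 2 lower, against 26.5% and 26.3% of all genes. With PhSpMo 2 rose and 2 fell, against 8.22% and 10.5% of all genes. The Flag-Pinhead counts were 3 and 0 without Flag-Pinhead replicate 1 or control ectoderm replicate 2 and with DESeq2, and the tissue counts 5 and 1 without control ectoderm replicate 1 or control marginal zone replicate 1. The immune regulator gene irf5.S rose to 18.1 and 15.7 CPM in Flag-Pinhead ectoderm, against 0.404 and 0.684 CPM in control ectoderm (log2 fold change 4.96, SE 0.26, adjusted p = 3.38e-14). The other copy, irf5.L, was read more in control ectoderm, at a mean of 26.5 CPM, and had 54.4 CPM in control marginal zone. It was not among the 4 rows of this list with the lowest p for Flag-Pinhead RNA. The rises with PhSpMo were those of irf9.S and irf9.L, for the DNA-binding subunit of the interferon-stimulated gene factor, at 0.89 (SE 0.22, adjusted p = 0.00383) and 0.45 (SE 0.15, adjusted p = 0.0314). DESeq2 called neither irf9 row, and irf9.L was also lost from the PhSpMo columns ending in 2 alone and without any 1 of control ectoderm replicate 1 or 2 or control marginal zone replicate 2.

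Interferon-responsive genes, on which IRF1, IRF2 and IRF9 act in mammals, gave no call with either treatment. Of 14 tested rows 0 passed edgeR's test with Flag-Pinhead RNA (1 at an unadjusted p under 0.05, and 0 with DESeq2) and 0 with PhSpMo (2 at an unadjusted p under 0.05, and 0 with DESeq2). Their median log2 fold changes were -0.13 and 0.12. Over all genes 15.5% rose and 11.9% fell with Flag-Pinhead RNA, and 8.22% rose and 10.5% fell with PhSpMo. Some alternatives called 1 row lower, among them the fits without Flag-Pinhead replicate 1 for both treatments and without replicate 2 for PhSpMo. Between the tissues 5 of the 14 were higher and 4 lower in control marginal zone, against 26.5% and 26.3% of all genes. The row psmb8.L, an immunoproteasome subunit, had 7.58 and 8.58 CPM in control marginal zone, against 1.26 and 1.48 CPM in control ectoderm (log2 fold change 2.56, SE 0.26, adjusted p = 4.84e-09).

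NF-kB pathway genes gave 1 call with PhSpMo, where 8.22% of all genes rose and 10.5% fell. With Flag-Pinhead RNA 15.5% of all genes rose and 11.9% fell, and between the tissues 26.5% were higher and 26.3% lower. Of 19 tested rows 3 rose and 4 fell with Flag-Pinhead RNA and 1 fell with PhSpMo, and 3 were higher and 4 lower in control marginal zone (5 and 5 in the fit of only the groups compared). The inhibitor gene nfkbia.L was that 1, at 14.0 CPM with PhSpMo, against 23.6 and 24.9 CPM in control marginal zone (-0.79, SE 0.14, adjusted p = 0.000136). It rose with Flag-Pinhead RNA to 29.8 and 23.9 CPM, against 15.6 and 15.2 CPM in control ectoderm (0.81, SE 0.12, adjusted p = 5.76e-06).

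Genes known in mammals as STAT3 targets gave calls in both directions with Flag-Pinhead RNA and more falls than rises with PhSpMo. Of 32 tested rows 9 rose and 8 fell with Flag-Pinhead RNA (median log2 fold change -0.04), 10 were higher and 11 lower in control marginal zone (median -0.08), and 3 rose and 13 fell with PhSpMo (median -0.13). Which of these rows answer to Stat3 in frog explants is not known here. Over all genes 15.5% rose and 11.9% fell with Flag-Pinhead RNA, and 8.22% rose and 10.5% fell with PhSpMo. Between the tissues 26.5% of all genes were higher and 26.3% lower in control marginal zone. Leaving out control ectoderm replicate 2, as well as DESeq2, gave 7 rises and 5 falls with Flag-Pinhead RNA, and the tissue counts were 10 higher and 6 lower without control marginal zone replicate 1, 9 and 7 without control ectoderm replicate 2, and 8 and 7 with DESeq2. The row junb.L, an AP-1 subunit, had 32.8 CPM with PhSpMo, against 84.1 and 83.8 CPM in control marginal zone (log2 fold change -1.36, SE 0.09, adjusted p = 2.73e-11). The row fos.L had 14.5 CPM with PhSpMo, against 52.4 and 55.7 CPM in control marginal zone (-1.90, SE 0.12, adjusted p = 5.67e-12). The inhibitor of apoptosis gene birc5.1.S fell as well, to 23.6 CPM against 51.9 and 54.5 CPM (-1.18, SE 0.10, adjusted p = 2.07e-09). The AP-1 gene fosl2.L had 2.47 and 2.58 CPM in control marginal zone, against 30.7 and 34.4 CPM in control ectoderm (-3.68, SE 0.21, adjusted p = 6.96e-14).

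The fos, junb and myc rows also belong to the immediate early list, the genes switched on at once by growth factors. Both lists thus count the falls of fos.L, fos.S and junb.L with PhSpMo. There 15 of 29 tested rows fell with PhSpMo and none rose (median log2 fold change -0.51), where 10.5% of all genes fell and 8.22% rose. Some alternatives called 1 rise, among them the fit of 8 samples as named and the fit of only the groups compared. The PhSpMo columns ending in 1 alone also gave 1 rise. With Flag-Pinhead RNA 18 rose and 4 fell (median 0.50), where 15.5% and 11.9% of all genes did. In control marginal zone 16 were higher and 8 lower (median 0.44), against 26.5% and 26.3% of all genes. The row fos.S had 156.0 and 155.8 CPM in Flag-Pinhead ectoderm, against 70.8 and 68.8 CPM in control ectoderm (1.16, SE 0.06, adjusted p = 1.11e-13). The same row had 22.7 CPM with PhSpMo, against 54.8 and 61.3 CPM in control marginal zone (-1.36, SE 0.09, adjusted p = 2.66e-11).

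Of 18 tested rows of the p53 response list 13 rose and 1 fell with Flag-Pinhead RNA (median log2 fold change 1.05), and 10 rose and 3 fell with PhSpMo (median 0.66); the 1 fall was lost without control ectoderm replicate 2. Between the tissues 6 were higher in control marginal zone and 7 lower (median -0.04), against 26.5% and 26.3% of all genes. Over all genes 15.5% rose and 11.9% fell with Flag-Pinhead RNA, and 8.22% rose and 10.5% fell with PhSpMo. The kinase gene plk2.L had 196 and 199 CPM in Flag-Pinhead ectoderm, against 35.1 and 45.3 CPM in control ectoderm (2.30, SE 0.08, adjusted p = 9.28e-18). It had 91.3 CPM with PhSpMo, against 19.3 and 17.2 CPM in control marginal zone (2.32, SE 0.11, adjusted p = 1.92e-14). The part of these genes' differences in the values of socs3, irf1.L, socs4.S and lif was not tested.

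**Figure D5:**
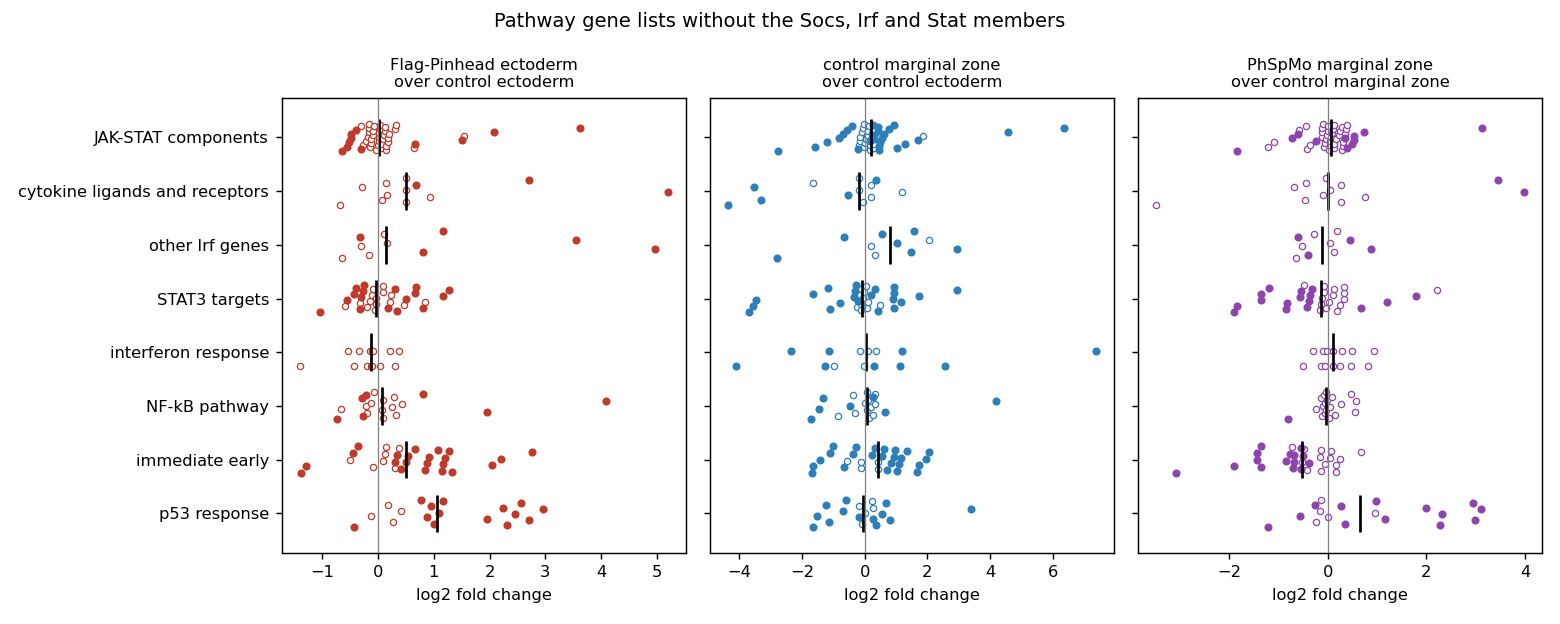
Log2 fold change (horizontal axes) of every tested row of 8 pathway lists in 3 comparisons; filled points passed the test, open ones did not, and black bars are list medians. With PhSpMo the immediate early median lies at -0.51 and the p53 response median at 0.66, and no interferon response row is filled with Flag-Pinhead RNA or PhSpMo.

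Mesoderm and endoderm markers were higher in control marginal zone than in control ectoderm in all 14 tested rows of each list, as the tissue labels say; socs3 was lower there. With PhSpMo rows of all 3 tissue marker lists fell, and socs3 stood under its controls. Mesoderm markers summed to 719 and 749 CPM in Flag-Pinhead ectoderm, 1982 CPM in PhSpMo marginal zone, 2500 to 2622 CPM in control marginal zone and 30.5 to 33.2 CPM in control ectoderm. Endoderm markers summed to 13.3 to 17.1 CPM in Flag-Pinhead ectoderm, 221 CPM in PhSpMo marginal zone, 390 to 395 CPM in control marginal zone and 5.07 to 7.48 CPM in control ectoderm. With PhSpMo 9 of 14 tested mesoderm rows and 10 of 14 endoderm rows fell, and none rose, except 1 mesoderm row in the fits without Flag-Pinhead replicate 1 or 2. Over all genes 10.5% fell and 8.22% rose with PhSpMo, and 11.9% fell and 15.5% rose with Flag-Pinhead RNA. Of 14 tested epidermis rows 7 fell and 2 rose with PhSpMo, and 10 fell and 2 rose with Flag-Pinhead RNA. The PhSpMo counts were 5 and 1 without control marginal zone replicate 1 and 6 and 1 without replicate 2. Their sum was 1190 to 1295 CPM in Flag-Pinhead ectoderm, 1533 CPM in PhSpMo marginal zone, 1712 to 1779 CPM in control marginal zone and 2426 to 2459 CPM in control ectoderm. The keratin krt12.L, high in ectoderm like socs3, had 11.8 CPM with PhSpMo, against 33.6 and 33.8 CPM in control marginal zone. Its call in edgeR (adjusted p = 3.78e-08) was lost with edgeR's robust estimate of spread (adjusted p = 0.0524). The epidermis row with the lowest p, foxi1.L, rose to 59.6 CPM, against 14.9 and 12.9 CPM (log2 fold change 2.10, SE 0.12, adjusted p = 7.37e-13). In tissue samples fewer cells of a type and less RNA per cell cannot be told apart, and the part of cell composition in the members' values was not tested. The 21 blood cell marker rows summed to 11.4 to 12.1 CPM in Flag-Pinhead ectoderm, 5.97 CPM in PhSpMo marginal zone, 5.49 to 5.57 CPM in control marginal zone and 13.4 to 13.7 CPM in control ectoderm. Most of that sum lay in lmo2.L and coro1a.L. The row lmo2.L had 4.18 and 4.96 CPM in Flag-Pinhead ectoderm, 0.353 CPM in PhSpMo marginal zone, 0.155 and 0.129 CPM in control marginal zone and 6.42 and 6.27 CPM in control ectoderm, and was called lower in control marginal zone than in control ectoderm (log2 fold change -5.43, SE 0.42, adjusted p = 4.75e-11). The 2 rows of coro1a.L stood between 3.36 and 5.93 CPM and between 0.627 and 1.32 CPM. Among the other markers, spib, mpo, lyz, ptprc and csf3r were at or near 0 in every sample, with at most 0.488 CPM.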

How the data were processed

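Poly(A) RNA of 8 explant samples was sequenced. The authors deposited raw counts per gene, 35649 rows in 16 columns. Each sample has 2 columns of unstated nature, summed here. For control marginal zone sample 1, the only one without columns of its own, the pair with mistyped names was used. CASAVA 1.8, HISAT2, SAMtools and HTSeq are named, per the submitters' processing notes; which build, annotation and counting settings were chosen is not given in the sources used here. No protocol states strand marking, so antisense reads cannot be told apart. Of 24441 LOC identifiers, 21071 were found by gene number in RefSeq (X. laevis v10.1). No sequences are printed.

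Counts entered edgeR 4.0.16 in R 4.3.3, with filterByExpr (minimum count 10), TMM scaling and a mean for each of 4 groups over 7 units, leaving 3 residual degrees of freedom. Quasi-likelihood F tests were adjusted by Benjamini-Hochberg over 22241 genes. SE is the log2 fold change over the square root of F. CPM are computed here. Fits were tested on simulated data. Alternatives were 14 planned settings, including DESeq2 1.42.0 and each replicate left out, and 2 added after seeing the data (PhSpMo columns by last digit, alone). The members and lists were chosen with earlier results of these data known. Of each list up to 4 rows with the lowest p in each comparison could be named, and a part of them is given. For socs3 and irf1 the 5 nearest profiles were named, by Euclidean distance. Some items withheld for evaluation are not reported here.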

Additional observations from a re-analysis of the deposited data

How the results depend on the processing

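DESeq2 called 3892 genes with Flag-Pinhead RNA and 2377 with PhSpMo, against 6088 and 4153 in edgeR. Leaving out 1 replicate in turn gave 4054 to 6107 called genes with Flag-Pinhead RNA, 9376 to 12502 between the tissues and 2471 to 5257 with PhSpMo. The members called higher then numbered 2 to 3 and those called lower 2 to 3 with Flag-Pinhead RNA, and 0 to 1 and 6 to 7 between the tissues. Called pathway rows then numbered 55 to 73, 86 to 109 and 40 to 69. With PhSpMo 4 members had a log2 fold change of -2 or less in each of the 16 alternatives but 1; from the columns ending in 2 alone there were 3, where socs1.L stood at -1.57. No tested member that passed changed sign in any of them.

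Same-numbered samples did not deviate together in ectoderm (correlation over genes -0.03), so no pairing by number was seen there. In marginal zone the correlation was -0.01, which cannot decide whether the numbers pair samples. The PhSpMo samples as named differed no more than columns of other single samples (mean chi-square per gene 1.43, against 1.29 to 1.46). With a replicate block in 8 libraries, socs2.L between the tissues no longer passed (adjusted p = 0.0657). Few counts limit irf1.L, socs1.L and socs3.L with PhSpMo and socs2.L throughout.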
